A study of Mus musculus with 2 samples.

Results

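The mitotic tumour endothelial cells described here are 338 of 6194 cells in 2 single-cell libraries. Cells with at least 2000 detected genes were kept, which left 4224, and each was scored by the mean deposited natural log value of 8 genes: Cdc20, Cenpa, Ccnb2, Cdkn3, Birc5, Hmmr, Cenpe and Knstrn. The 8% of kept cells with the highest score, taken over both libraries together, are the members, and the 3886 other kept cells are what they are set against. The members' score ran from 0.857 to 1.87 with a median of 1.18, and 238 of the 338 members held at least 1 UMI (a molecule counted by its unique molecular identifier) of all 8 genes. The other kept cells included 2394 with none of the 8.

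The cells were endothelial cells sorted from tumours of adult C57BL/6 mice on CD31, the surface protein encoded by Pecam1, and were run with 10x 3′ v3.1 chemistry. One library is labelled NF2 KO. Nf2 encodes merlin, which acts upstream of the Hippo kinases and the coactivators YAP and TAZ that they restrain. The other library is labelled control. The tumour type, the promoter or Cre behind the knockout, its exons and the number of mice pooled are not given in the sources used here. Barcodes of each library carry 1 of 2 run prefixes whose meaning is not stated, so runs are given side by side and are not replicates. With 1 library per condition there is no test between conditions, and brackets give 95% intervals that cover counting error only.

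Endothelial cells of a resting vessel seldom divide, whereas those of a tumour can be driven into the cell cycle. On entry into mitosis, cyclin B with the kinase Cdk1 starts chromosome condensation and spindle assembly, the kinetochores built on Cenpa nucleosomes attach chromosomes to microtubules, and the chromosomal passenger complex of Birc5, Cdca8, Incenp and Aurkb corrects faulty attachments. The anaphase-promoting complex, switched on first by Cdc20 and later by Fzr1, then marks cyclin B and securin for destruction. Transcripts of this machinery accumulate late in the cycle, largely through a promoter element called CHR and nearby CCAAT boxes, and many persist into the next G1 phase.

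The endothelial label held in the members. All 338 had UMIs of at least 2 of 18 endothelial markers, with a median of 16 detected. The 18 markers summed to 8474 CPM (counts per 1000000 UMIs of a summed group of cells) and 8657 CPM in members of the 2 NF2 KO runs, and to 9381 and 9322 CPM in members of the 2 control runs. Other kept cells had 8415 and 8738 CPM in the NF2 KO runs and 11388 and 11110 CPM in the control runs. Summed pericyte or smooth muscle, fibroblast, epithelial and melanocyte markers each stayed at or below 22.2 CPM in members of any run. Erythrocyte markers reached 227 CPM in members of NF2 KO run 2, against 8.83 CPM in its other kept cells. Of single markers, Cd3d, Cspg4, Myh11, Epcam, Krt19 and Dct had no UMI in any member, whereas Tagln, Col3a1 and Cldn4 averaged 8.34, 6.47 and 5.38 CPM. Members with no UMI numbered 292 for pericyte or smooth muscle, 258 for fibroblast and 301 for epithelial markers. The 16 leukocyte markers summed to 52.0 and 69.9 CPM in NF2 KO members and to 225 and 89.5 CPM in control members. At least 2 leukocyte markers were detected in 145 members (42.9%) and in 38.2% of other kept cells, and 77 members had no leukocyte UMI. Of the members, 5 exceeded 1000 CPM of the leukocyte markers and 1 exceeded 1000 CPM of haemoglobin and other erythrocyte markers. Of 3 cell barcodes found in 2 runs, 1 was shared between the libraries, and none belonged to a member. Members were deeper than the cells around them, with median UMIs of 18751 and 26409 in the NF2 KO runs and 18065 and 30048 in the control runs, against 15388 and 19109 and then 16744 and 21587 in the other kept cells of the same runs.

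The threshold cut a continuum. The 20 members just inside it scored 0.857 to 0.880 and the 20 cells just outside it 0.811 to 0.850. Mitotic markers that the score did not use, 15 in all, summed to 2772 CPM in the 20 just inside and to 2707 CPM in those just outside, against 4213 CPM over all members and 280 CPM over all other kept cells.

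Nearly the same share of the kept cells of both libraries was mitotic by this rule. The minimum of 2000 genes kept 2820 of 3368 NF2 KO cells but only 1404 of 2826 control cells. Median UMIs over all cells were 15588.5 in NF2 KO and 5386.5 in control. Below the minimum, 16 NF2 KO and 63 control cells had a score past the threshold, so the shares speak for kept cells only. Members were 221 of 2820 kept NF2 KO cells, or 7.84% (Clopper-Pearson interval 6.87 to 8.89), and 117 of 1404 kept control cells, or 8.33% (6.94 to 9.90). The runs gave 8.10% and 7.66% in the NF2 KO library and 8.56% and 8.08% in the control library, so the intervals of all 4 runs overlap. The ratio of the shares was 0.940, and it lay between 0.891 and 1.09 under every alternative choice of cells.

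**Figure D1:**
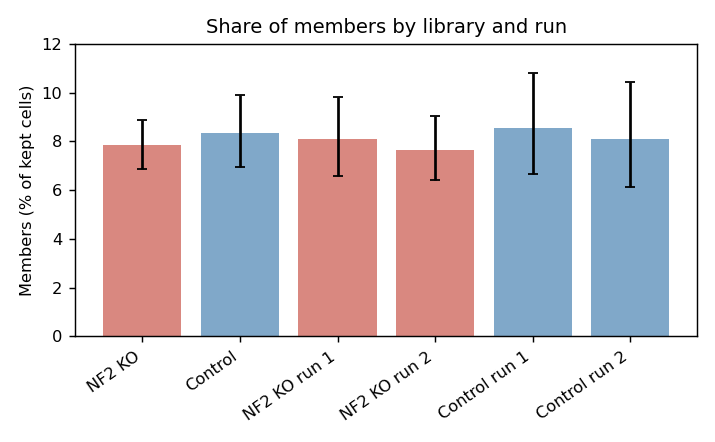
Members as a percent of kept cells (vertical axis) in the NF2 KO library, the control library and each of the 2 runs of both, with bars at the share and whiskers at the 95% Clopper-Pearson interval. Shares lie between 7.66% and 8.56%, and every interval overlaps every other.

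The scoring genes themselves, given as a description because they chose the cells, differed little between libraries within the members. Birc5, the survivin of the chromosomal passenger complex, had 531 and 531 CPM in the NF2 KO runs and 521 and 480 CPM in the control runs. Ccnb2, a B-type cyclin, had 260 and 284 CPM in NF2 KO and 257 and 300 CPM in control. Cdc20 had 276 and 235 CPM in NF2 KO and 214 and 239 CPM in control. Among the 8 genes, the NF2 KO over control ratio ran from 0.813 for Cenpe, a kinetochore motor, to 1.29 for Cdkn3, a phosphatase that acts on Cdk1. In other kept cells the same genes stood at 3.99 to 34.2 CPM in any run.

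Outside the scoring genes, the members carried the mitotic machinery at many times the level of the cells around them, in all 4 runs. A gene was called here when members and other kept cells of the same run differed at least 2-fold in the same direction in each run, at a mean of at least 20 CPM. Of 5948 genes tested, 196 were higher (3.3%) and 4 were lower (0.0672%). Folds are the mean of the 4 within-run log2 ratios, with 5 CPM added to both sides, and they describe cells that were chosen by co-expressed genes. Genes of low level outside mitosis passed the minimum of 20 CPM only through the members, so a list's count of called genes is no measure of how many of its genes take part.

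Cenpf (chromosome 1, 189640606 to 189688086, minus strand of GRCm38), a large kinetochore protein, led with 425 and 377 CPM in members of the NF2 KO runs and 407 and 598 CPM in members of the control runs. Other kept cells had 11.1 and 15.3 CPM in NF2 KO and 17.6 and 17.5 CPM in control, and the fold was 22.3. Ube2c (chromosome 2, 164769898 to 164778822), the ubiquitin-conjugating enzyme of the anaphase-promoting complex, had 834, 655, 632 and 788 CPM in members in the same order of runs and 31.6, 33.1, 31.6 and 35.7 CPM in the other cells, a fold of 19.2. In neither gene did any run of the members overlap any run of the other kept cells. Ccnb1, the other main B-type cyclin, was 14.3-fold higher, as was the spindle protein gene Nusap1. Prc1, which bundles the microtubules of the central spindle, was 14.2-fold higher, and the mitotic kinase Plk1 14.1-fold higher. Mki67, which encodes the Ki-67 antigen that coats mitotic chromosomes, had 508 and 488 CPM in NF2 KO members and 554 and 688 CPM in control members, 12.6-fold over the other cells.

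**Figure D2:**
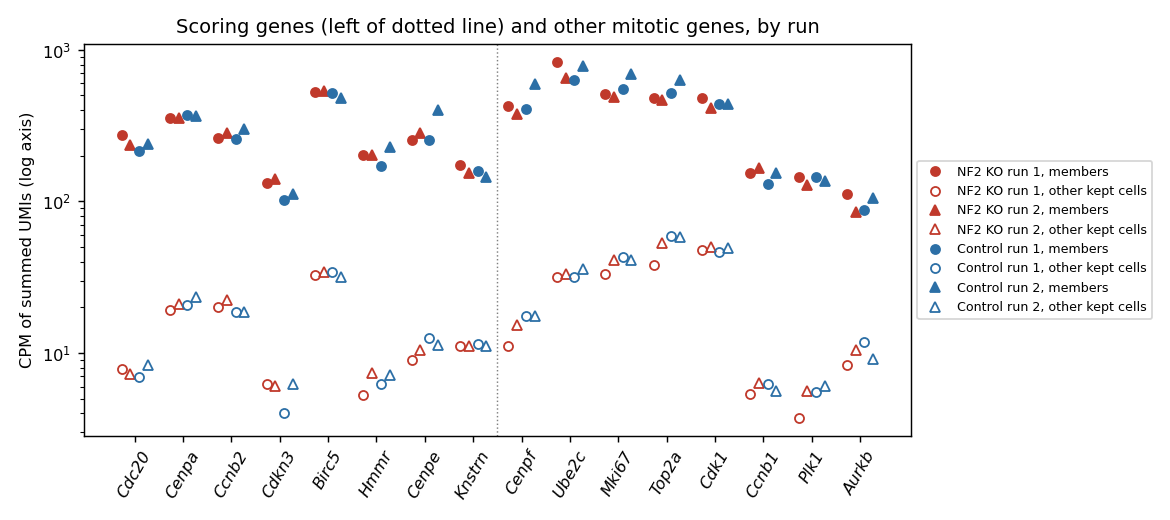
CPM of summed UMIs on a log axis for the 8 scoring genes (left of the dotted line) and 8 other mitotic genes, by run. Filled symbols are members, open symbols other kept cells, red NF2 KO and blue control. For Cenpf, members lie between 377 and 598 CPM and other kept cells between 11.1 and 17.6 CPM.

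The next genes by fold belong to the same apparatus. Pimreg, which encodes a mitotic regulator that binds the clathrin assembly protein CALM, stood 13.1-fold higher. The spindle assembly factor Tpx2 and the passenger complex gene Cdca8 stood 12-fold higher each. Cep55, needed for the final cut between daughter cells, was 11.7-fold higher, and Aspm, a spindle pole protein, 11.4-fold higher. Ccna2, the cyclin of S and G2 phase, was 11.3-fold higher, the contractile ring scaffold Anln 10.5-fold, and the kinesins Kif20b and Kif23 10.1-fold and 9.89-fold. Ckap2, Tacc3, Ckap2l and Knl1, proteins of spindle or kinetochore, lay between 9.54 and 9.83-fold.

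By list, 12 of 13 tested mitotic cyclins and kinases were called higher, with a median log2 ratio of 2.98, where the median over all tested genes was 0.05. The same held for 16 of 19 centromere and kinetochore genes (median 2.57), 17 of 18 spindle genes (3.19), all 7 tested cytokinesis genes (3.16) and all 3 listed passenger genes (2.78). Structural chromosome genes were split, with 11 of 18 called (1.43). Smc2 and Smc4, core subunits of condensin, were 6.48-fold and 4.73-fold higher. Of the anaphase-promoting complex, checkpoint and separase list, 6 of 20 were called (median 0.51), among them Ube2c, Ube2s at 3.77-fold, the checkpoint gene Mad2l1 at 4.94-fold and the coactivator Fzr1 at 2.35-fold. Of the cell cycle transcription factors, Foxm1, the forkhead factor that drives late cell cycle genes, was the 1 called of 5 tested, with 59.6 and 62.8 CPM in NF2 KO members and 59.8 and 56.3 CPM in control members, 5.45-fold over the other kept cells.

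Free RNA in droplets and the members' greater depth can both add cells with a UMI, so shares are given at the depth found and after thinning each cell to 5000 UMIs. Mki67 had a UMI in 97.0% of members and 16.9% of other kept cells, and in 80.4% and 8.09% after thinning, which left out 2 members and 19 other cells below that depth. Top2a, the topoisomerase that untangles sister chromatids, was found in 68.3% of members and 20.2% of others, and in 53.9% and 9.0% after thinning. Aurkb was found in 49.4% of members and 7.90% of others, and in 28.0% and 3.0% after thinning. So Top2a and Aurkb were missing from many cells in which Mki67 was nearly always found.

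Genes of DNA replication were higher in part. Of 27 tested S phase genes, 14 were called higher (median log2 1.08), led in level by Pclaf (6.55-fold), Tyms (3.03-fold), Rrm1 (3.96-fold) and Tk1 (6.27-fold), which serve replication or nucleotide supply. A separate S phase score was the mean natural log value of Mcm2 to Mcm7, Pcna, Rrm2, Tyms, Cdc6, Cdc45, Gins2, Ung, Uhrf1 and Slbp. The 8% of kept cells with the highest such score included 72 of the 338 members (21.3%, interval 17.1 to 26.1) and 266 of the 3886 other kept cells (6.85%, 6.07 to 7.69). The share of members in that set was 19.4% and 23.4% in the NF2 KO runs and 18.8% and 22.6% in the control runs. Of 14 chromatin and lamina genes 11 were called, with the chromatin protein gene Hmgb2 at 6.67-fold and the histone variant gene H2afz at 3.72-fold. Of 9 tubulin and stathmin genes 6 were called, with Stmn1, a microtubule-destabilising protein, at 6.18-fold and Tuba1b at 4.06-fold.

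The genes that were lower in members were few. Called lower were Chga, which encodes the granule protein chromogranin A (2.74-fold), Fbxo32, a ubiquitin ligase subunit (2.73-fold), Mxd4, a repressor that pairs with Max (2.73-fold), and the Schlafen gene Slfn5 (2.38-fold). Mxd4 had 52.9 and 37.2 CPM in NF2 KO members and 49.4 and 51.9 CPM in control members. In the other kept cells it had 142 and 120 CPM in NF2 KO and 156 and 137 CPM in control, with no overlap between the groups. No gene of the endothelial, tip cell, hypoxia, YAP and TAZ, Notch or immediate early lists was called in either direction. Their medians were -0.16 for 18 endothelial, -0.40 for 24 tip cell, -0.39 for 17 hypoxia and glycolysis, -0.33 for 14 YAP and TAZ, -0.07 for 8 Notch and -0.49 for 16 immediate early genes. Of 76 ribosomal protein genes none was called (median -0.09), nor of 69 genes of oxidative phosphorylation (0.19).

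Promoters of the scoring genes Ccnb2, Cdc20 and Hmmr and of some genes called higher are shown as picked examples. The late cell cycle programme is known to act through the CHR, taken here as the letters TTTGAA, and CCAAT boxes. The sequences are from RefSeq (GRCm38.p6), run from 110 bases before the annotated start to 25 bases after it on the gene's strand, and carry both motifs in capitals: TTTGAA or its reverse complement TTCAAA for the CHR, CCAAT or its reverse complement ATTGG for the box. No matches overlap one another in the sequences shown. Ccnb2 lies at chr9:70421530-70421664 (minus strand), Cdc20 at chr4:118437319-118437453 (minus), Hmmr, a scoring gene for a spindle-binding receptor, at chr11:40733413-40733547 (minus), Ube2c at chr2:164769819-164769953 (plus), Cdk1 at chr10:69352888-69353022 (minus) and Top2a at chr11:99024165-99024299 (minus). Nusap1 at chr2:119618188-119618322 (plus) is shown as a called gene with none of the motifs in this window. The called genes Plk1 and Ccnb1, not shown, have CCAAT but neither TTTGAA nor TTCAAA in this window. Both hold the near match TTTAAA there, so the missing letters do not show that a CHR is absent.
Ccnb2: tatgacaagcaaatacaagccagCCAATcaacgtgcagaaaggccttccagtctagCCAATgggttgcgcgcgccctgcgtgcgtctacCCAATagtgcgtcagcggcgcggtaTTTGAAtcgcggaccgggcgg
Cdc20: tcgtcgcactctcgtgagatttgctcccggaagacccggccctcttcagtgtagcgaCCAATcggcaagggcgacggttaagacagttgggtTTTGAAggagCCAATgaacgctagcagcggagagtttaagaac
Hmmr: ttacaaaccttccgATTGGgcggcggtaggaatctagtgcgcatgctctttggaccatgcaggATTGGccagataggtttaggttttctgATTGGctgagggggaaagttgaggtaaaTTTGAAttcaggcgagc
Ube2c: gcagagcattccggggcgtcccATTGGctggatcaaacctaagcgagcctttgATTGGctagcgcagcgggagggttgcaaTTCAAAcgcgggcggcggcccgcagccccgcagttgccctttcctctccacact
Cdk1: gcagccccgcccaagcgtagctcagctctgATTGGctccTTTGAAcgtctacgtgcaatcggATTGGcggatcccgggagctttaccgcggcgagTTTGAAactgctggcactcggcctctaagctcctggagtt
Top2a: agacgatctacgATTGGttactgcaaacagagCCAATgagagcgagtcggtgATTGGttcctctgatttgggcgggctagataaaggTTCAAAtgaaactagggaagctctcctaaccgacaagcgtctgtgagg
Nusap1: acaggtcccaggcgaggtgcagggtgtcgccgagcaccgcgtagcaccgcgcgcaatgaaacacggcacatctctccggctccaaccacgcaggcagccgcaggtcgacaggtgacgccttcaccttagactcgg

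In Ccnb2, 3 CCAAT boxes begin at -87, -54 and -21 and TTTGAA begins at 5, counted from the start at 1 with no position 0. Hmmr also has 3 boxes before its TTTGAA, but in the other orientation and at other spacings, with ATTGG at -96, -47 and -20 and TTTGAA at 9. Of the 196 called genes, 159 matched a promoter in the RefSeq table, and TTTGAA or TTCAAA was found in 77 of them (48.4%) within 250 bases before to 50 bases after the start. With the scoring genes left out, it was found in 605 of 4638 promoters of tested genes that were not called higher (13.0%) and in 20.2% of all 27025 promoters in the table. CCAAT or ATTGG was found in 110 of the 159 (69.2%), in 41.8% of the genes not called higher and in 41.1% of all promoters. Both were found in 58 (36.5%), in 4.94% of those not called higher and in 7.97% of all. Of 100 matches of TTTGAA or TTCAAA in the 77 called genes, 61 began within 50 bases of the start, and of 711 matches in genes not called higher, 139 did (19.5%).

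Other motifs were found in fewer promoters, although motifs of unlike length cannot be compared by frequency alone. TTTAAA, a palindrome that differs from TTTGAA in 1 letter, was found in 16.4% of called genes, 10.5% of those not called higher and 14.9% of all promoters. TGTTTAC, a forkhead motif, was found in 3.77%, 3.0% and 4.05%, and the E2F motif TTTCGCGC in 3.14%, 0.776% and 0.374%, both strands counted. The E2F motif was thus rare but more frequent in called genes (5 of 159) than in those not called higher (36 of 4638). These matches are a description of letters and not of binding.

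The members fell into 2 kinds by genes that the score did not use. Across the 338 members, the Spearman correlations between Top2a, Cdk1, Nusap1, Prc1 and Aurkb ran from 0.75 to 0.84 over their 10 pairs. All 15 correlations of Ccnb2, Cdkn3 or Knstrn with these 5 genes lay below 0, from -0.29 to -0.07. The points are cells of 4 runs that share the choice by score, so the values are descriptions. The summed level of the 5 genes had 2 peaks, and a boundary of 700 CPM, set after seeing this, put 163 members on its upper side (called Top2a-high) and 175 on its lower side (Top2a-low). Within a factor of 2 of the boundary, between 350 and 1400 CPM, lay 31 members, and 19 had no UMI of the 5 genes.

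**Figure D3:**
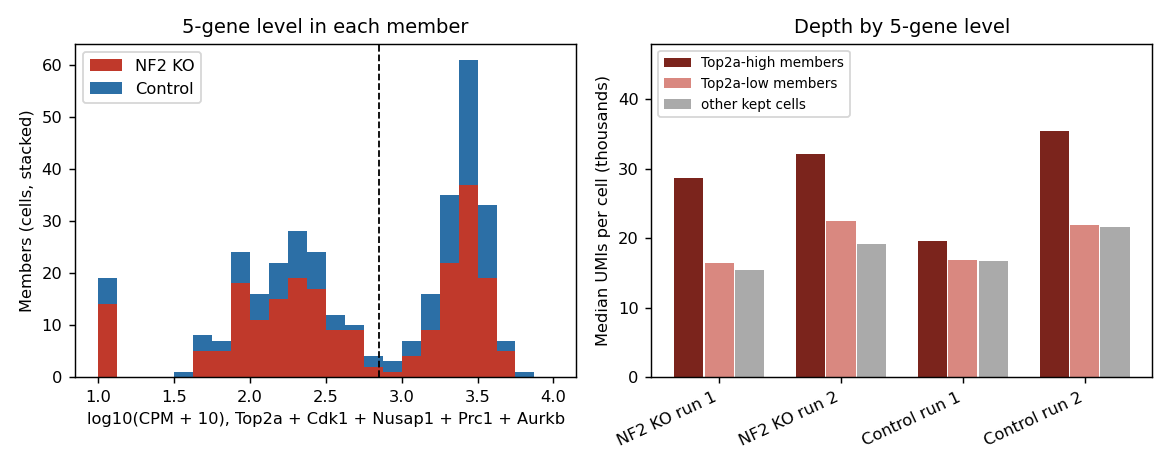
Left, number of members (stacked, red NF2 KO and blue control) by log10 of the summed CPM of Top2a, Cdk1, Nusap1, Prc1 and Aurkb plus 10, with a dashed line at the boundary of 700 CPM. Right, median UMIs per cell by run for Top2a-high members, Top2a-low members and other kept cells. The levels form 2 groups with 31 of 338 members near the boundary, and Top2a-high members are the deepest cells in each of the 4 runs.

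Top2a-high cells made up 97 of 221 NF2 KO members, or 43.9% (37.2 to 50.7), and 66 of 117 control members, or 56.4% (46.9 to 65.6). The runs gave 45.2% and 43.0% in NF2 KO and 54.7% and 58.5% in control, so both NF2 KO runs lay below both control runs, while the counting intervals of the libraries overlap. A gate on lineage markers turned this order round, with 39.3% of 61 NF2 KO members and 36% of 25 control members. Top2a-high members had more UMIs, with a median of 30048 UMIs per cell, against 19020 in Top2a-low members and 17941 in other kept cells. The ratio of Top2a-high to Top2a-low medians was 1.74 and 1.43 in the NF2 KO runs and 1.16 and 1.62 in the control runs. More RNA per cell and a more complete capture of it cannot be told apart here.

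Beyond the 5 genes that define them, 85 of 6017 tested genes were at least 2-fold higher in Top2a-high than in Top2a-low members in all 4 runs (1.41%), and 0 were lower by that rule. The cells were split on co-expressed cell cycle genes, and genes low elsewhere passed the minimum of 20 CPM only through the Top2a-high members, so these counts are descriptions. Genes of the histone clusters, most of whose transcripts are made in S phase and end without a poly(A) tail, were among the higher ones. Hist1h1b, a linker histone gene (chromosome 13, 21779883 to 21780625), had 454 and 552 CPM in Top2a-high members of the NF2 KO runs and 513 and 709 CPM in those of the control runs. Top2a-low members had 5.68 and 5.70 CPM in NF2 KO and 8.78 and 115 CPM in control, and other kept cells 40.8 to 60.5 CPM. So in 3 of 4 runs Top2a-low members lay below the other kept cells, and in control run 2 above them.

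Some single genes of cell cycle control, picked after their values were seen, were also high on the Top2a-high side. Fbxo5, which encodes Emi1, an inhibitor of the anaphase-promoting complex, averaged 77.4 CPM over the 4 runs in Top2a-high members, 1.38 CPM in Top2a-low members and 7.04 CPM in other kept cells. Wee1, the kinase that holds Cdk1 inactive, averaged 49.3, 4.28 and 19.995 CPM in the same order, and Cdc25b, the phosphatase that opposes it, 55.5, 6.96 and 1.98 CPM. Ccnf, which encodes cyclin F, averaged 42.2, 1.68 and 2.26 CPM. Kpna2, an importin, averaged 95.9, 5.64 and 8.81 CPM, and Cdkn2d, the CDK inhibitor p19, 187, 18.8 and 22.7 CPM. The list of the anaphase-promoting complex, checkpoint and separase as a whole had 4 of 22 genes higher and a median log2 ratio of 0.14, where all tested genes had -0.01.

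The 8 scoring genes, whose sum the choice of members holds high, ran both ways across the 2 kinds, with log2 ratios from -0.48 for Ccnb2 to 0.61 for Cenpe and a median of -0.05. Ccnb2 averaged 238 CPM in Top2a-high and 332 CPM in Top2a-low members, Knstrn 138 and 186 CPM, and Cenpa 342 and 390 CPM, each lower in Top2a-high members of all 4 runs. Cenpe averaged 347 and 222 CPM and was higher in all 4, and Cdc20 had 244 and 232 CPM. Mki67 averaged 741 and 294 CPM, Ccnb1 187 and 95.8 CPM and Plk1 188 and 65.3 CPM. Top2a-low members were still called higher than other kept cells for 108 of 5867 genes (1.84%) and lower for 14 (0.239%). Lower genes among them included Pgf, a ligand of the VEGF receptor Flt1 (159 CPM in Top2a-low members and 658 CPM in other kept cells), the hypoxia-induced gene Ndrg1 (109 and 260 CPM), the YAP target Ankrd1 (9.0 and 55.7 CPM) and the nuclear long non-coding RNA Malat1, at 3.19-fold.

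Between the libraries, Nf2 itself (chromosome 11, 4765845 to 4849536, minus strand) stood at 31.4 and 21.5 CPM in members of the NF2 KO runs and at 26.4 and 27.6 CPM in members of the control runs. The ratio was 0.932 (0.711 to 1.23), and 0.949 in the other kept cells. Reads of a 3′ kit need not fall in the removed exons, which are not given, so the knockout label is unchecked by this level.

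Among members, which passed 1 pooled threshold on mitotic genes, the mitotic programme differed little between NF2 KO and control. A gene was called here at a ratio of at least 1.5 either way, an exact conditional interval that excludes 1 and a mean of at least 20 CPM, with the scoring genes left out. Of 6027 genes tested, 163 were higher in NF2 KO members (2.7%) and 364 were lower (6.04%). For 154 higher (2.56% of those tested) and 359 lower genes (5.96%) the NF2 KO and control runs also did not overlap. Other kept cells gave 172 of 5795 higher (2.97%) and 327 lower (5.64%), and 169 (2.92%) and 327 without overlap of runs. None of 26 kinetochore, 23 spindle, 7 cytokinesis, 3 passenger, 19 condensin and cohesin, 29 S phase and 14 chromatin genes was called in either direction. Many of these genes are co-expressed with the score that chose the members of both libraries. Their closeness is thus partly set by the rule and is a description only. The median log2 ratios of these lists lay between -0.20 and 0.06, and that of all genes was -0.04.

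Of 19 mitotic cyclins and kinases, 2 were called lower in NF2 KO members and 0 higher. Cdc25b (chromosome 2, 131186949 to 131198497) had 30.5 and 25.9 CPM in the NF2 KO runs and 39.6 and 49.7 CPM in the control runs, a ratio of 0.611 (0.485 to 0.769). Wee1 (chromosome 7, 110122046 to 110143286) had 21.5 and 25.9 CPM in NF2 KO and 38.2 and 39.8 CPM in control, a ratio of 0.619 (0.484 to 0.793). Within members neither overlapped between the libraries. In other kept cells Wee1 ran the other way, with 23.1 and 21.4 CPM in NF2 KO and 18.9 and 16.6 CPM in control, a ratio of 1.25 (1.12 to 1.39). Cdc25b stood there at 2.18 CPM in NF2 KO and 1.68 CPM in control, far below the minimum of 20 CPM. Cdc25b and Wee1 are genes of the Top2a-high members, whose share was 43.9% in NF2 KO and 56.4% in control (39.3% and 36% with the gate). Within those members Wee1 had 34 and 45.8 CPM in NF2 KO and 58.7 and 58.6 CPM in control. The part of that share in the ratios was not tested. Cdk1 had 484 and 413 CPM in NF2 KO and 442 and 437 CPM in control members, a ratio of 1.0 (0.939 to 1.07), and Ube2c gave 1.01 (0.956 to 1.06). Mki67 gave 0.788 (0.744 to 0.834) and Top2a 0.814 (0.767 to 0.863), below the size needed for a call.

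**Figure D4:**
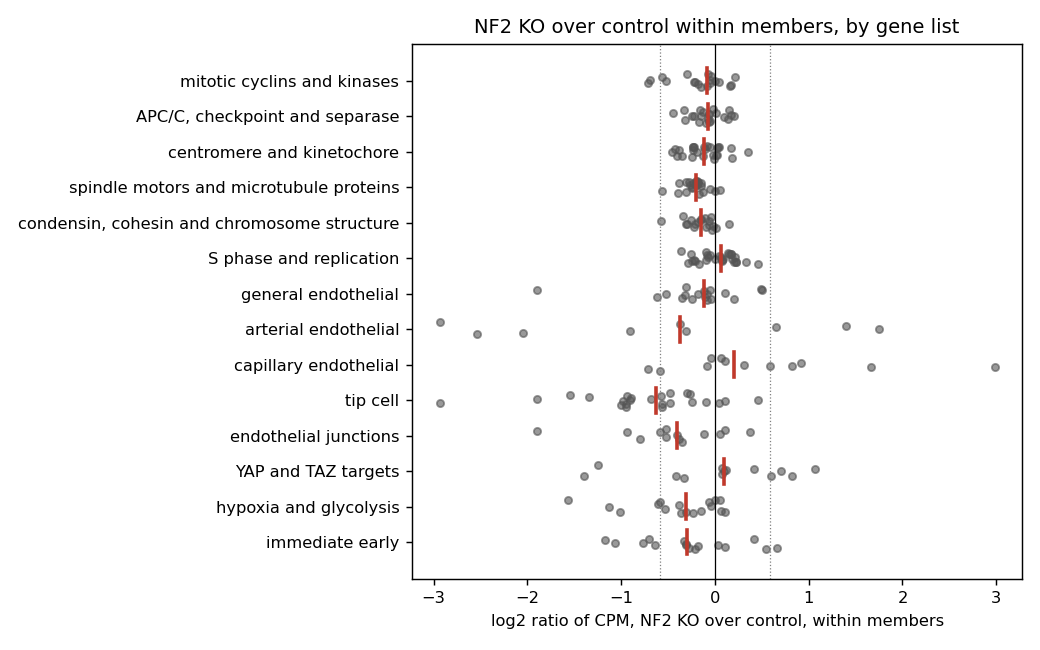
Log2 ratio of CPM, NF2 KO over control, within members (horizontal axis), for the tested genes of 14 lists. Each grey point is a gene, the red bar the median of its list, and dotted lines mark a ratio of 1.5 either way. Mitotic lists sit close to 0, and the tip cell list is shifted to the left with a median of -0.63.

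Among called genes whose runs did not overlap, the highest NF2 KO over control ratio in members was that of Ackr1 (chromosome 1, 173331886 to 173333750), the atypical chemokine receptor of venules, with 123 and 19.8 CPM in the NF2 KO runs and 1.39 and 6.63 CPM in the control runs. Its ratio was 13.7 (8.05 to 25.3), but 1 NF2 KO cell held 45.7% of its NF2 KO UMIs. Car4, a carbonic anhydrase of capillaries (chromosome 11, 84957786 to 84966044), had 74.4 and 143 CPM in NF2 KO and 20.2 and 10.5 CPM in control, a ratio of 7.91 (5.90 to 10.8), and was found in 39.4% of NF2 KO and 15.4% of control members. Bgn, the matrix proteoglycan biglycan, had 88.7 and 85.1 CPM in NF2 KO and 4.87 and 22.6 CPM in control, a ratio of 5.85. In each of these 3 genes the libraries did not overlap.

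The others of the 12 highest ratios were Rgs2, a regulator of G protein signalling, at 5.96, the prostaglandin transporter Slco2a1 at 4.29, Fam198b at 3.63, the fucosidase Fuca2 at 3.51, the venular P-selectin gene Selp at 3.36, Edn1 at 3.36, the capillary gene Cd300lg at 3.18, the transcription factor Cebpd at 3.0 and the venular glycoprotein Lrg1 at 2.96. Edn1, the vasoconstrictor endothelin 1, had 306 and 403 CPM in NF2 KO members and 89.0 and 125 CPM in control members. That level in NF2 KO members lay below the 658 and 630 CPM of the other kept NF2 KO cells. Within members, 83.7% of NF2 KO and 47.0% of control cells had an Edn1 UMI. Over the 12 highest genes, the ratio in other kept cells ran from 1.31 for Cd300lg to 5.04 for Edn1.

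Lowest in NF2 KO members among the named genes was the neuropeptide gene Gal, with 18.8 and 1.65 CPM in the NF2 KO runs and 359 and 60.2 CPM in the control runs, but 1 control cell held 46.6% of its control UMIs. Gkn1, which encodes gastrokine 1, was more evenly spread, with UMIs in 4.98% of NF2 KO and 35% of control members. It had 6.72 and 0.826 CPM in NF2 KO and 57.7 and 55.2 CPM in control, 18.4-fold lower in NF2 KO. Peg3, a paternally expressed gene (chromosome 7, 6703892 to 6730431), had 16.6 and 10.5 CPM in NF2 KO and 131 and 135 CPM in control and was 10.4-fold lower. Efnb2, the arterial ephrin B2, had 16.1 and 20.6 CPM in NF2 KO and 96.6 and 121 CPM in control and was 5.82-fold lower. Unc5b, the netrin receptor of tip cells and arteries, was 7.64-fold lower. Tmem255a was 11.5-fold lower, Ildr2 7.20-fold, and Nts, the neurotensin gene, 6.16-fold, with 67.5% of its control UMIs in 1 cell. Kcnj8 and Abcc9, the paired subunits of an ATP-sensitive potassium channel, were 5.68-fold and 4.91-fold lower, and Prrg3 and Antxr1 4.31-fold and 4.26-fold lower. All genes named in this paragraph were lower in NF2 KO in other kept cells too, with ratios from 0.107 for Tmem255a to 0.385 for Nts.

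Of 24 tip cell genes, 12 were called lower and 0 higher in NF2 KO members (median log2 -0.63). In other kept cells 13 were lower and 3 higher (median -0.63), so this shift was not particular to the members. Inhbb, a subunit of activin B, had 160 and 165 CPM in NF2 KO and 311 and 312 CPM in control. Dll4, the tip cell ligand of Notch, had 123 and 119 CPM in NF2 KO and 214 and 248 CPM in control. Of 7 Notch genes 3 were lower (Dll4, Hes1 and Notch4), and of 13 junction genes 4 were lower. Among these was the tight junction gene Cldn5, at 147 and 186 CPM in NF2 KO and 660 and 625 CPM in control. Other kept cells had 5 of 8 Notch genes and 4 of 13 junction genes lower. The Cldn5 ratio was 0.268 in members and 0.263 in other kept cells. All 4 tested MHC class II genes were lower in NF2 KO members (median -1.24), as were all 5 tested in other kept cells (-1.66). The highest in level was the invariant chain gene Cd74, with 35 and 106 CPM in NF2 KO and 181 and 254 CPM in control members. In the control members 1 cell held 45.3% of the Cd74 UMIs, and 1 cell held 35.7% of those of H2-Aa. The leukocyte genes S100a8 and S100a9 were lower as well, with ratios of 0.363 and 0.341. Without cells rich in leukocyte or erythrocyte markers these were 0.863 and 0.799, while Cd74 gave 0.347, against 0.357 with them. Arterial, venous and capillary lists were mixed, with 3 higher and 4 lower of 9, 4 and 1 of 13, and 4 and 2 of 12.

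Of 13 YAP and TAZ target genes, 4 were higher and 2 lower (median 0.10), where the same list in other kept cells had 8 of 15 higher, 2 lower and a median of 0.62. The minimum of 20 CPM was applied to each group of cells on its own, so the tested genes differ. Of all tested genes, 2.7% were higher in members and 2.97% in other kept cells. Ctgf had 378 and 333 CPM in NF2 KO members and 159 and 173 CPM in control members, a ratio of 2.10, and Cyr61 gave 1.63. Nt5e and Igfbp3 were the 2 lower. The D-type cyclin Ccnd1, which carries growth signals into G1, had 487 and 631 CPM in NF2 KO members and 362 and 334 CPM in control members, a ratio of 1.66 (1.55 to 1.78). In other kept cells that ratio was 1.19. None of 76 ribosomal protein genes was called, although their median log2 ratio was 0.25.

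Of 17 hypoxia and glycolysis genes, 4 were lower in NF2 KO members and 0 higher (median -0.31), where 6.04% of all tested genes were lower. The other kept cells had 0 called and a median of 0.05. Egln3, an oxygen-sensing prolyl hydroxylase, had 28.2 and 12.4 CPM in NF2 KO and 59.8 and 50.3 CPM in control members. Slc2a1, the glucose transporter GLUT1, had 75.7 and 65.2 CPM in NF2 KO and 116 and 159 CPM in control members, and Pfkfb3, an activator of glycolysis, 41.7 and 45.4 CPM in NF2 KO and 106 and 88.4 CPM in control members. In these 3 genes the libraries did not overlap within the members. In other kept cells they were also lower in NF2 KO but short of a call, with ratios of 0.815, 0.779 and 0.773. Bnip3, the remaining called gene, gave 1.26 there. The difference between members and other kept cells in these ratios has no test, since each condition has 1 library.

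**Figure D5:**
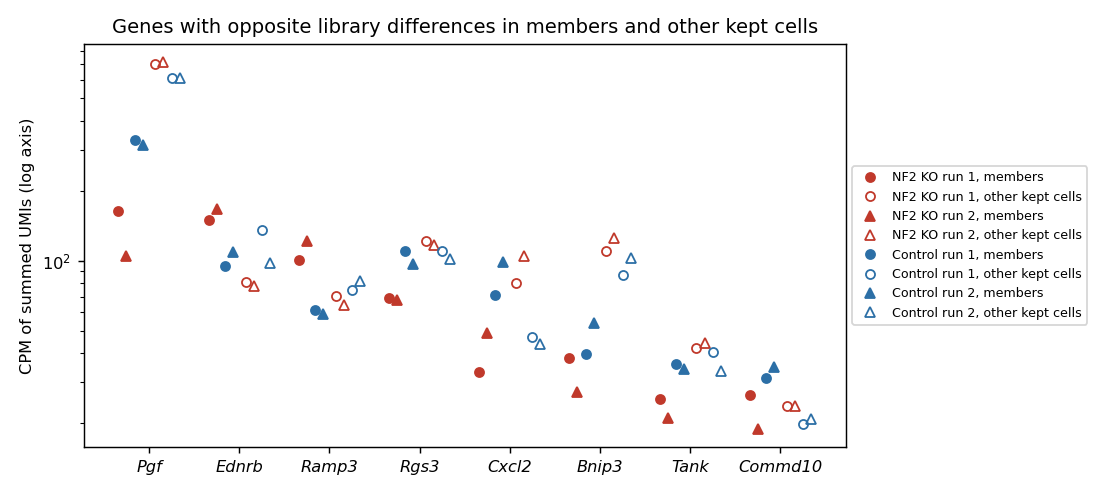
CPM of summed UMIs on a log axis for 8 genes whose NF2 KO over control difference ran one way in members (filled) and the other way in other kept cells (open), by run, red NF2 KO and blue control. Pgf has 163 and 104.6 CPM in NF2 KO members and 331 and 315 CPM in control members, while other kept cells lie between 608 and 712 CPM.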

How the data were processed

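The authors deposited 1 table per library with natural log values of 19831 genes. A gene's UMIs had been divided by its cell's total, scaled to 10000 and logged after adding 1, since reversing these steps gave whole UMI counts for 100% of values (tolerance 0.01 UMI). Cell Ranger 3.0.0, Seurat 3.1.1 and mm10 are named in the submitters' processing notes. The members and gene lists were chosen with earlier results of these data known.

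Recovered UMIs were summed over members and over other kept cells of each library and run, and divided by the group's total to give CPM. Members held 5864245 UMIs in NF2 KO and 3248843 in control. Intervals are exact (Poisson, conditional, Clopper-Pearson; 95%). No p-value was computed. Named genes are the 20 highest and the called lowest of members over others, the 12 highest and 12 lowest of NF2 KO over control with runs apart, and up to 4 called genes of most CPM per list. Genes named by their split into Top2a-high and Top2a-low members, or by opposite differences, were chosen after their values were seen, as were Cdc25b, Wee1 and the genes set beside them.

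Doublets were scored by neighbours among simulated doublets and removed only in an alternative. Promoters are RefSeq's (GRCm38.p6) and gene coordinates GENCODE M21. The rules were tested on simulated data. Python 3.11.15, numpy 2.4.6, scipy 1.17.1, pandas 2.3.3 and scikit-learn 1.9.0 were used.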

Additional observations from a re-analysis of the deposited data

Results flagged for a closer look

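In 8 genes the difference between the libraries ran one way in members and the other way in other kept cells, in every run of both. They are 1.66% of the 482 genes that were called in members with runs apart and tested in other kept cells. These differences between the 2 kinds of cell were not tested, since each condition has 1 library. Pgf, a ligand of the VEGF receptor Flt1, had 163 and 104.6 CPM in NF2 KO members and 331 and 315 CPM in control members, a ratio of 0.394 (0.358 to 0.433). In other kept cells it had 698 and 712 CPM in NF2 KO and 612 and 608 CPM in control, a ratio of 1.16. Ednrb, the endothelin B receptor, had 150 and 167 CPM in NF2 KO members and 94.5 and 109 CPM in control members, a ratio of 1.56, and the ratio was 0.684 in other kept cells. Ramp3, a partner of the adrenomedullin receptor, had 101 and 121 CPM in NF2 KO members and 61.2 and 59.1 CPM in control members, a ratio of 1.89, against 0.850 in other kept cells. The chemokine gene Cxcl2 had 33.2 and 48.7 CPM in NF2 KO members and 70.9 and 98.3 CPM in control members, a ratio of 0.497, against 2.13 in other kept cells. Of these Cxcl2 UMIs, 1 cell held 30.3% in NF2 KO members and 1 cell 39.6% in control members.

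The G protein regulator Rgs3 gave 0.665 in members and 1.12 in other kept cells, and the hypoxia-induced mitophagy gene Bnip3 0.658 and 1.26. Tank, an adaptor of NF-kappaB signalling, gave 0.651 and 1.18, and Commd10 0.657 and 1.17. Over 12 alternative choices of members or left-out runs, the opposite directions held in 12 for each of these genes except Tank, where they held in 11.

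Cells below the minimum of 2000 genes, which enter no comparison above, also included cells with a score past the members' threshold. They were 16 of 548 NF2 KO cells (2.92%, 1.68 to 4.70) and 63 of 1422 control cells (4.43%, 3.42 to 5.63). By run they were 2 of 180 and 14 of 368 in NF2 KO and 60 of 1284 and 3 of 138 in control. Mitotic markers outside the score summed to 5220 CPM in these NF2 KO cells and 4945 CPM in these control cells, against 510 and 721 CPM over all cells below the minimum. Their median depth was 3002 UMIs in NF2 KO and 1908 UMIs in control.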

How the results depend on the processing

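With 1 library per condition nothing here speaks to the spread between animals, and counts of genes depend on depth and on the size asked for. No paired analysis was possible because the labels give no replicate numbers. The ratio of member shares, NF2 KO over control, lay between 0.891 and 1.09 under all alternatives, above 1 in 4 of 12 and within its counting interval in each. NF2 KO members had 163 genes higher and 364 lower. With each run left out in turn these counts ran from 184 to 250 (250 without control run 2) and from 411 to 434, and those with runs apart from 182 to 246 on the higher side. A minimum of 10 CPM gave 286 higher (267 with runs apart). A minimum of 50 CPM gave 65 higher and 154 lower (64 and 153 with runs apart), and a ratio of at least 2 gave 42 and 90 (40 and 89). Scaling by the median ratio gave 197 and 305. The number of lists with a median of at least 0.5 either way was 2, and 2 to 4 with a run left out.

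For members over other kept cells, 196 were higher. A minimum of 50 CPM gave 91, a ratio of at least 1.5 in every run 342 and of at least 3 in every run 123. The 4 lower genes became 8 with the top 5% as members, 9 with the score on thinned cells, 11 without likely doublets (23 members removed), 18 with a gate on lineage markers (1073 kept cells), 7 with all cells weighted alike, 10 with a minimum of 10 CPM, 52 and 0 with ratios of at least 1.5 and 3, and 4 to 12 with a run left out.

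Of 1273 values of named genes for NF2 KO over control under alternatives, 1057 kept direction and call, 209 kept direction and lost the call, and 7 turned round. With the gate, which asks for 0 leukocyte UMIs, Gal gave 2.36, Cxcl12 0.978, Icam1 0.493 and Tank 1.01. Nts gave 1.05 with the top 12% as members. Hbb-bs, whose ratio of 29.4 in members rests on 1 NF2 KO cell, gave 0.162 without cells rich in leukocyte or erythrocyte markers and between 0 (without NF2 KO run 2) and 47.4 with a run left out. The cause of these turns was not tested. For members over other kept cells, 974 of 1007 values were unchanged in direction and call and 33 lost the call. The share of Top2a-high members lay between 39.3% and 50.2% in NF2 KO and between 36% and 60.7% in control under all alternatives, and the gate, which left 61 and 25 members, turned the order round, with 39.3% in NF2 KO and 36% in control.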
